A study of Mus musculus with 20 samples.

Results

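Matricellular proteins and the genes that mark activated fibroblasts were followed from normal skin (NS) through actinic keratosis (AK) to cutaneous squamous cell carcinoma (cSCC). The 10 genes were Fn1, Postn, Tnc, Spp1, Sparc, Thbs1, Fap, Acta2, Pdgfra and Pdgfrb. They were chosen by name, with earlier results of these data known. All 10 were found among the 22090 gene symbols of the count table, of which 18160 had a count in any sample. RNA-seq had been made from skin pieces of 8 SKH-1 mice, females of a hairless strain prone to skin tumors after ultraviolet exposure. They were 7 months old when supplied, before the irradiation, and thus older when the skin was taken. Of these mice 4 were irradiated and 4 were not. The labels give 8 NS, 8 AK and 4 cSCC samples, all of the same strain, sex and labelled tissue. By the protocol, each unirradiated mouse gave 1 piece of normal skin, and each irradiated mouse gave 1 piece of normal skin and 3 lesions, so the AK samples stand for fewer mice than samples and share mice with the cSCC samples. The paper describes AK of different grades, which were taken here as a single group. The labels tell neither which mouse a sample came from nor which NS samples were irradiated. The samples were therefore treated as independent. The p-values may be too small where samples of the same group share a mouse, and too large where the groups compared share mice.

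Matricellular proteins are secreted into the extracellular matrix, where they bind collagens, growth factors and integrins and change how cells attach and move rather than build the scaffold itself. They are low in most resting tissue and rise in wounds and in tumor stroma. Fibroblasts are activated by TGF-beta and by PDGF, which acts through PDGFRA and PDGFRB, and an activated fibroblast can make smooth muscle actin (Acta2) and the surface protease FAP. None of these genes belongs to fibroblasts alone: pericytes and vascular smooth muscle make Acta2 and Pdgfrb, macrophages make Spp1 and Fn1, endothelial cells make Sparc, platelets store thrombospondin, and keratinocytes of healing or growing epidermis can make Tnc, Postn, Fn1 and Thbs1.

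Total counts per sample ranged from 775750 in cSCC replicate 20 to 14055206 in AK replicate 10. Levels are CPM, counts brought to 1 library total by TMM factors over the 20 samples, and a level under 3 counts, between 0.225 and 3.78 CPM depending on the library, was taken as not detectable, which covers counting error only. The keratinocyte list of 7 genes summed to at least 5459 CPM in each sample, so the defining markers of skin were present. Of the 4 cSCC libraries 3 stood apart. In cSCC replicate 18, 46.8% of all counts were haemoglobin (95% Wilson interval 46.8 to 46.9). Its TMM factor was 0.509, against 0.852 to 1.22 in the other samples, so its CPM are higher than by library total alone. In cSCC replicate 20, 4.07% were from a list of 7 lung genes (4.02 to 4.11), and in cSCC replicate 21, 5.23% were from a list of 10 heart muscle genes (5.21 to 5.24). Without replicates 20 and 21, 12.2% of all genes tested were called in cSCC vs. NS and 12.6% in cSCC vs. AK by edgeR.

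Set on a scale per kilobase of exon, so that genes can be compared, Sparc had the highest median level in NS, at 94.4 CPM per kb, followed by Postn at 88.2, Spp1 at 44.2, Acta2 at 24.7 and Thbs1 at 22.5 CPM per kb. In AK the order of the highest began with Postn at 108 CPM per kb, then Sparc at 79.7 and Spp1 at 69.8 CPM per kb. In cSCC it began with Sparc at 313 CPM per kb, then Spp1 at 154 and Postn at 65.0 CPM per kb. Fap, Pdgfra and Pdgfrb were the lowest 3 in every group, with medians between 1.63 and 3.94 CPM per kb. The ranges over samples of each gene and its neighbour in this order overlapped in all 3 groups. On this scale Postn thus stood above Sparc in the AK medians and below it in the NS and cSCC medians.

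**Figure D1:**
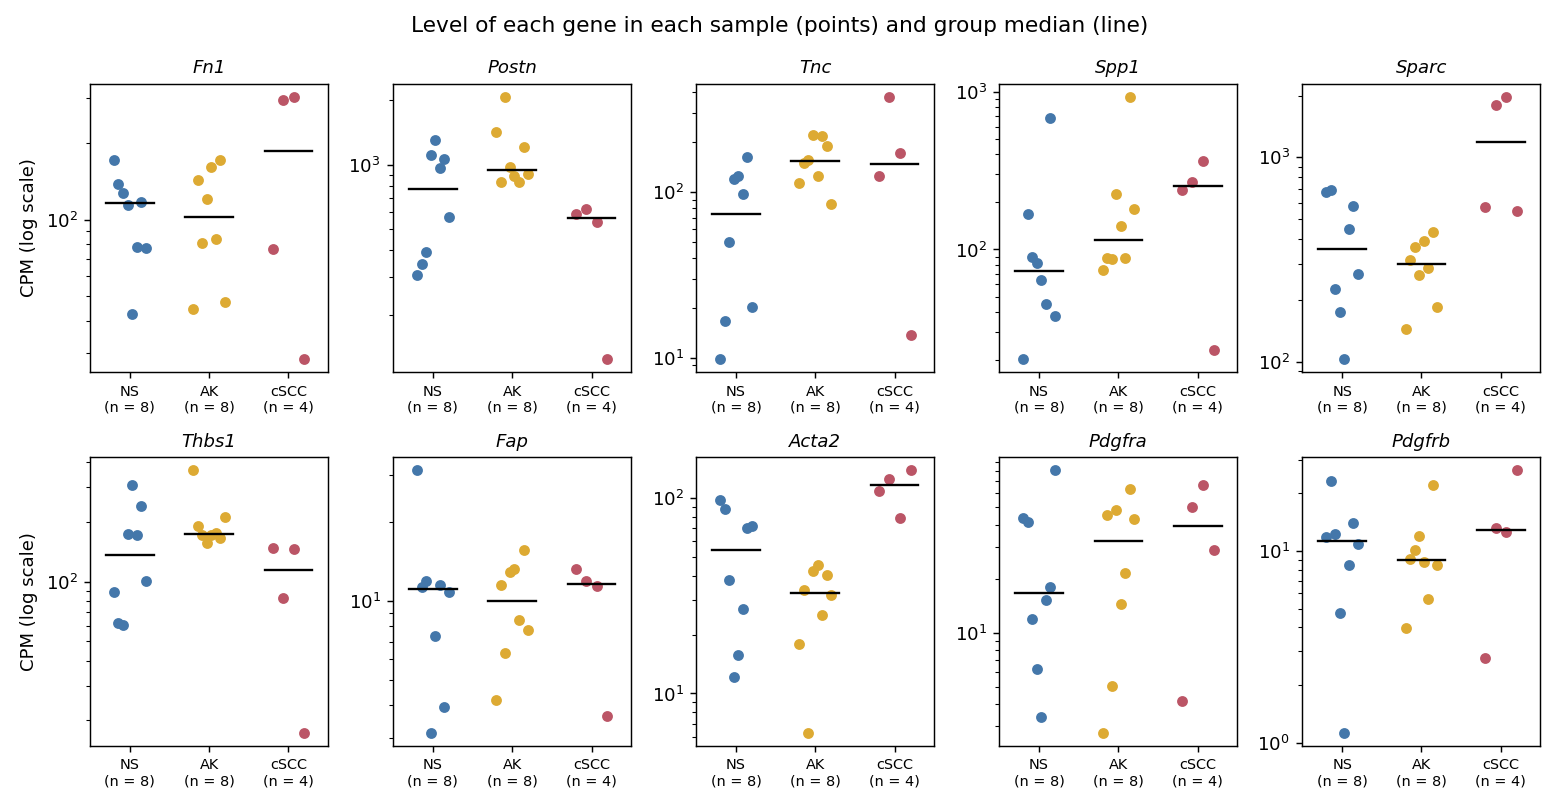
Level of each of the 10 genes in each sample, in CPM on a log scale, for 8 NS, 8 AK and 4 cSCC samples. Points are samples and lines are group medians. Sparc and Acta2 lie higher in all 4 cSCC samples than in all AK samples, and Postn and Thbs1 lie lower.

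A gene was called when edgeR's quasi-likelihood test gave a Benjamini-Hochberg adjusted p under 0.05 over all genes tested and the fold change was above 1.5 or below 0.67. All 10 genes passed the filter on low counts in each comparison. In AK vs. NS none of the 10 was called by edgeR, against 4.64% of all genes tested (2.26% higher and 2.38% lower). At an unadjusted p under 0.05 with the same fold change limits 1 was (Tnc), against 15.4% of all genes. DESeq2 called 0 and limma voom 1 (Tnc), but each called more of all genes here than edgeR did. Those numbers are given with the alternatives below. In cSCC vs. NS 1 of 10 was called (Sparc, higher), against 19.3% of all genes (11.7% higher and 7.65% lower), and at an unadjusted p 2 were (Sparc and Acta2), against 33.5%. In cSCC vs. AK 3 of 10 were called, Sparc and Acta2 higher and Postn lower, against 24.4% of all genes (16% higher and 8.34% lower), so the number of calls was near that of the whole table. At an unadjusted p 4 passed there (these and Thbs1, lower), against 37.4% of all genes. None of the 10 genes had groups that did not overlap in AK vs. NS or cSCC vs. NS. Among all genes this was seen with AK above NS for 0.394% and below for 0.128%, and with cSCC above NS for 2.7% and below for 5.73%. The median log2 fold change of the 10 genes was 0.04, 0.58 and 0.31 in these comparisons, against -0.04, 0.14 and 0.17 for all genes tested. The comparisons share samples and are not independent of each other.

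**Figure D2:**
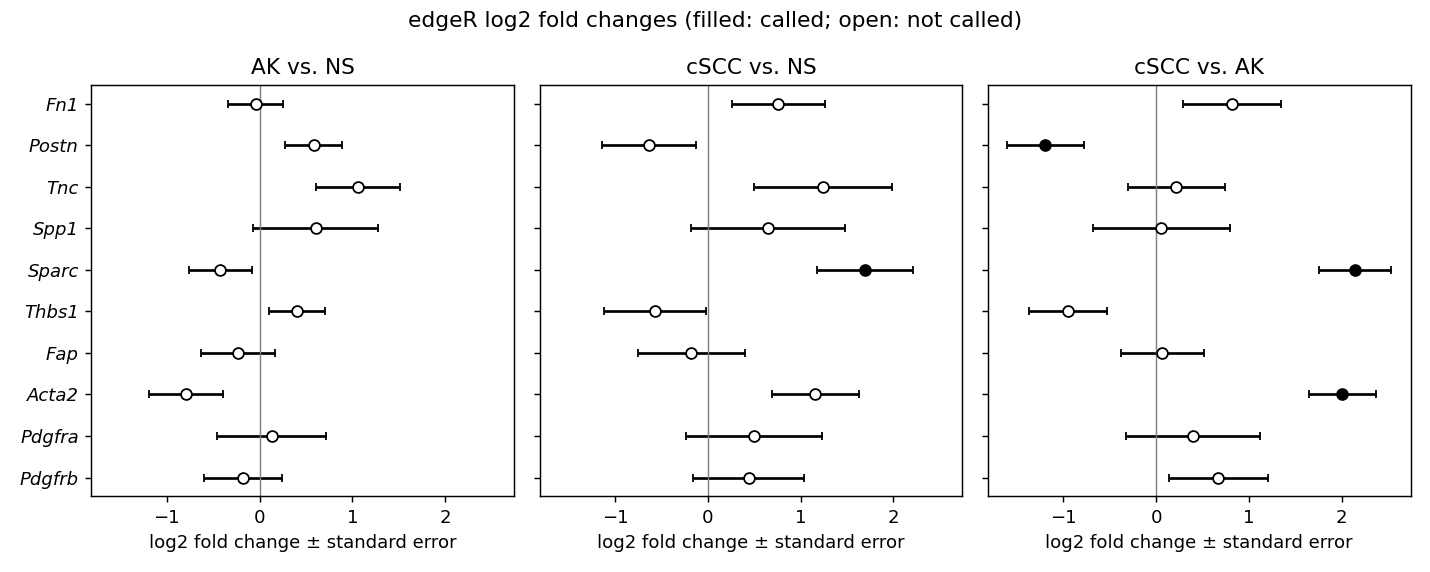
log2 fold change of each gene with its standard error in each of the 3 comparisons, from edgeR. Filled points are called genes and open points are not called. Sparc at 2.15 and Acta2 at 2.01 in cSCC vs. AK have the largest values.

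Sparc (ENSMUSG00000018593.13, chr11:55394500-55423183, minus strand, GRCm38) codes for osteonectin, a collagen-binding matricellular glycoprotein. In the 4 cSCC samples it was at 574, 1796, 1981 and 549 CPM in replicates 18 to 21. In AK it ranged from 144 to 433 CPM with a median of 302 CPM, and in NS from 103 to 689 CPM with a median of 358 CPM. Every cSCC sample was above every AK sample, whereas NS replicates 1, 2 and 8 at 673, 689 and 580 CPM reached the lower cSCC samples. Scaled by library total alone, without the TMM factor, cSCC replicate 18 would lie within the AK range. The difference between cSCC and AK was 2.15 ± 0.39 (SE) on the log2 scale, a 4.43-fold higher level (edgeR adjusted p = 0.00299). Against NS it was 1.70 ± 0.52 (SE), with an adjusted p of 0.0338 from edgeR. In bulk tissue, more cells of a type and more RNA per cell cannot be told apart.

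The difference in Sparc from AK held without cSCC replicates 20 and 21, at 2.07 (edgeR adjusted p = 0.00543), and DESeq2 called it there while limma voom did not. The cSCC samples left there were replicate 18, rich in haemoglobin and at 574 CPM, and replicate 19, at 1796 CPM. The call against NS was less firm. Its adjusted p in edgeR ranged from 0.0197 to 0.104 when 1 sample was left out, and it was lost without NS replicate 4, 5, 7 or 9 (0.0631, 0.0615, 0.0514 and 0.0601), without cSCC replicate 19 or 20 (0.0942 and 0.104) and without cSCC replicates 20 and 21 together (0.0864). AK and NS did not differ beyond their spread in Sparc (-0.42 ± 0.34, adjusted p = 0.461, edgeR).

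Postn (ENSMUSG00000027750.16, chr3:54361109-54391037, plus strand, GRCm38) codes for periostin, an integrin ligand that helps cross-link collagen. In cSCC it was at 592, 623, 539 and 124 CPM in replicates 18 to 21. In AK it ranged from 832 to 2077 CPM with a median of 941 CPM. All 4 cSCC samples were below all 8 AK samples, and the lowest was replicate 21. The edgeR difference between cSCC and AK was -1.19 ± 0.41 (SE) on the log2 scale, with an adjusted p of 0.0477, just under the threshold. It was lost in 11 of the 12 fits that left out 1 sample, where the adjusted p ranged from 0.0401 to 0.0755. Only the fit without cSCC replicate 18 kept it. Without cSCC replicates 20 and 21 the value was -0.84 (adjusted p = 0.143, edgeR).

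In NS, Postn ranged from 305 to 1309 CPM, with a median of 768 CPM. NS replicates 1, 2 and 4 were the lowest, at 305, 343 and 390 CPM, and replicates 5, 6 and 8 the highest, at 1114, 1309 and 1068 CPM. NS thus spanned cSCC replicates 18 to 20 and most of AK, while cSCC replicate 21, at 124 CPM, lay below all NS samples. The AK vs. NS value was 0.59 ± 0.31 (SE, adjusted p = 0.245) and the cSCC vs. NS value was -0.64 ± 0.51 (SE, adjusted p = 0.401), both from edgeR.

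Tnc (ENSMUSG00000028364.15, chr4:63959785-64047015, minus strand, GRCm38) codes for tenascin C, which is laid down at wound edges and under growing epidermis and loosens cell attachment to fibronectin. NS ranged from 9.86 to 162 CPM, with a median of 73.9 CPM, AK from 85.0 to 221 CPM, with a median of 154 CPM. NS replicates 1, 2 and 9 lay at 9.86, 16.8 and 20.2 CPM, and replicate 4 at 49.9 CPM, below all AK samples, while NS replicates 5, 6, 7 and 8 lay within the AK range. In cSCC the samples were at 124, 377, 173 and 13.7 CPM, a range that takes in nearly all other samples. The AK vs. NS value of 1.06 ± 0.45 (SE) had an unadjusted p of 0.0286 and an adjusted p of 0.152 in edgeR. Limma voom with sample quality weights gave 1.62 (adjusted p = 0.0287), and edgeR with a score of fibroblast identity genes as a covariate 1.25 (adjusted p = 0.0496), so the call depended on the test. Over all alternatives that kept every sample the adjusted p ranged from 0.0287 to 0.347. In the comparisons with cSCC the values were 1.24 ± 0.75 (SE) against NS and 0.22 ± 0.52 (SE) against AK, with adjusted p of 0.258 and 0.795 in edgeR. One gene on the opposite strand, 8030451A03Rik, overlaps Tnc, and the strand used in counting is not stated.

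Postn and Tnc are shown with the 250 bases before their RefSeq start because both had a high r with each other in NS. The sequences are from RefSeq on GRCm38.p6, on the strand of each gene, chr3:54360857-54361106 for Postn and chr4:64047016-64047265 for Tnc. Capitals mark the letters TATAAA, the form of a TATA box, which 12.4% of 32851 promoters of the same length hold on either strand.
Postn: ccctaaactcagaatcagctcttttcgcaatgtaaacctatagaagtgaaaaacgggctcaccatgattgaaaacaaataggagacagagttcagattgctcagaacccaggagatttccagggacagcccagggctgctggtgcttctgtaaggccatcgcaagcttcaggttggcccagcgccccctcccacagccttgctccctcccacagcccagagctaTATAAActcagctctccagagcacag
Tnc: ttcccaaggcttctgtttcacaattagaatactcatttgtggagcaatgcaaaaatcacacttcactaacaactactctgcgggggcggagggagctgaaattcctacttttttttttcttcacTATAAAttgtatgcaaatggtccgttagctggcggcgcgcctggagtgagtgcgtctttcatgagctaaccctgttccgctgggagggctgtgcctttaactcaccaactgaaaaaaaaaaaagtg
Each window holds 1 such match, in Postn close to the start and in Tnc near the middle of the window, much farther from the start. The AP-1 type motif TGANTCA, searched on both strands, which 6.75% of promoters hold, had no match in either, nor had CAGAC, a form of the SMAD-binding element that 42.2% hold. A match is a description of the letters alone.

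Thbs1 (ENSMUSG00000040152.8, chr2:118111876-118127133, plus strand, GRCm38) codes for thrombospondin 1, an inhibitor of vessel growth that can also activate TGF-beta. In cSCC it was at 147, 82.6, 146 and 17.4 CPM in replicates 18 to 21. In AK it ranged from 156 to 363 CPM (median 174), and in NS from 60.7 to 308 CPM (median 136). All cSCC samples were below all AK samples, as for Postn, but the edgeR value of -0.95 ± 0.42 (SE) had an adjusted p of 0.112. That the groups did not overlap with cSCC below AK was also seen for 6.84% of all genes, and with cSCC above for 3.33%. Compared with NS the value was -0.57 ± 0.55 (SE, edgeR adjusted p = 0.498), and in AK vs. NS it was 0.41 ± 0.30 (SE, edgeR adjusted p = 0.417). Gm29233, a gene of the opposite strand, overlaps Thbs1.

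Spp1 (ENSMUSG00000029304.14, chr5:104435118-104441050, plus strand, GRCm38) codes for osteopontin, a ligand of integrins and CD44. It ranged from 20.2 to 686 CPM in NS (median 72.8) and from 73.6 to 929 CPM in AK (median 115). The cSCC samples were at 240, 268, 365 and 23.2 CPM. In each of NS and AK 1 sample, NS replicate 8 and AK replicate 16, was far above the rest, whose highest were 167 and 224 CPM. The edgeR values were 0.60 ± 0.67 (SE) in AK vs. NS, 0.65 ± 0.83 (SE) in cSCC vs. NS and 0.06 ± 0.73 (SE) in cSCC vs. AK, with adjusted p between 0.607 and 0.962. DESeq2 called Spp1 higher in cSCC than in NS once cSCC replicates 20 and 21 were left out, while edgeR and limma voom did not. Leaving out AK replicate 16 turned the AK vs. NS value to -0.25, and leaving out 1 sample at a time moved it between -0.25 and 1.65.

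Fn1 (ENSMUSG00000026193.15, chr1:71585520-71653200, minus strand, GRCm38) codes for fibronectin, the integrin-binding fibre on which new matrix is laid. In cSCC it was at 77.1, 295, 304 and 28.4 CPM in replicates 18 to 21. NS ranged from 42.8 to 171 CPM, with a median of 116 CPM, and AK from 44.5 to 171 CPM, with a median of 102 CPM. NS and AK had nearly the same range, and in cSCC 2 samples were above all of these while replicate 21 was below them all. The edgeR values were -0.04 ± 0.30 (SE) in AK vs. NS, 0.76 ± 0.50 (SE) in cSCC vs. NS and 0.82 ± 0.53 (SE) in cSCC vs. AK, and none was called (adjusted p between 0.271 and 0.948). The direction of the AK vs. NS value turned in several fits, so no direction can be given for it. Apol7d overlaps Fn1 on the opposite strand.

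Acta2 (ENSMUSG00000035783.9, chr19:34241090-34255590, minus strand, GRCm38) codes for alpha smooth muscle actin, the contractile actin of smooth muscle, of pericytes and of the myofibroblasts that draw a wound together. In cSCC it was at 108, 125, 78.5 and 138 CPM in replicates 18 to 21, the least variable of the 10 genes over these samples (SD of log2 level 0.35). AK ranged from 6.31 to 45.2 CPM, with a median of 32.7 CPM, and NS from 12.1 to 96.8 CPM, with a median of 54.2 CPM. All cSCC samples were above all AK samples, and NS replicates 1 and 2, at 96.8 and 87.2 CPM, lay above the lowest cSCC sample. The difference between cSCC and AK was 2.01 ± 0.36 (SE) on the log2 scale, 4.02-fold (edgeR adjusted p = 0.00288). It was 1.99 without cSCC replicates 20 and 21 (edgeR adjusted p = 0.00776), and with 1 sample left out at a time the adjusted p ranged from 0.00265 to 0.00747. Against NS the value of 1.16 ± 0.47 (SE) had an adjusted p of 0.0990 and was not called, and in AK vs. NS it was -0.79 ± 0.40 (SE, adjusted p = 0.226), both from edgeR.

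Because smooth muscle also makes Acta2, 9 other smooth muscle genes were set beside it. Their summed level was 102 to 2318 CPM in cSCC, 27.7 to 133 CPM in AK and 64.2 to 322 CPM in NS, with the highest in cSCC replicate 21. Of the 7 tested in cSCC vs. AK 4 were called higher (Des, 5.68 on the log2 scale, Actg2 2.55, Smtn 2.06 and Tagln 2.00), against 16% of all genes called higher. In cSCC replicates 18 and 19, the summed smooth muscle level lay within the AK range, at 102 CPM and, near its upper end, at 133 CPM. The AK median was 72.6 CPM. Acta2, at 108 and 125 CPM, lay above its own AK range in both samples. Myh11, which codes for the heavy chain of smooth muscle myosin, was at 0 counts in both. Tagln was at 14.6 CPM in replicate 18, within its AK range. In replicate 19 it was at 25.9 CPM, above the highest AK sample at 17.4 CPM. Without cSCC replicates 20 and 21, edgeR, DESeq2 and limma voom each called 0 of these 7 genes, with 2 higher and 2 lower at an unadjusted p under 0.05 in edgeR, while Acta2 kept its call in all 3 tools. The median log2 fold change of the 7 genes was then 0.64 in edgeR, against -0.006 for all genes, so the list still leaned upward. Endothelial genes also moved with the group. All 9 tested were called higher in cSCC than in AK, and without replicates 20 and 21 edgeR called 0 of 9 (4 at an unadjusted p under 0.05), DESeq2 1 and limma voom 0. The summed endothelial level was 121, 141, 287 and 747 CPM in cSCC replicates 18 to 21, 34.1 to 107 CPM in AK and 35.5 to 120 CPM in NS, so every cSCC sample was above every other sample. As a share of all counts, cSCC replicate 18 (0.00615%) was below NS replicate 9 (0.0125%). The part of the endothelial level in the differences of Acta2 and Sparc was not tested. The pericyte list, which summed to 100 to 817 CPM in cSCC and 68.2 to 328 CPM in AK, had 1 of 7 genes called (Kcnj8, higher in cSCC), and a median log2 fold change of 1.38. Without replicates 20 and 21 the median was -0.24, and edgeR, DESeq2 and limma voom called 0 of 7, with 2 higher and 1 lower at an unadjusted p under 0.05 in edgeR.

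**Figure D3:**
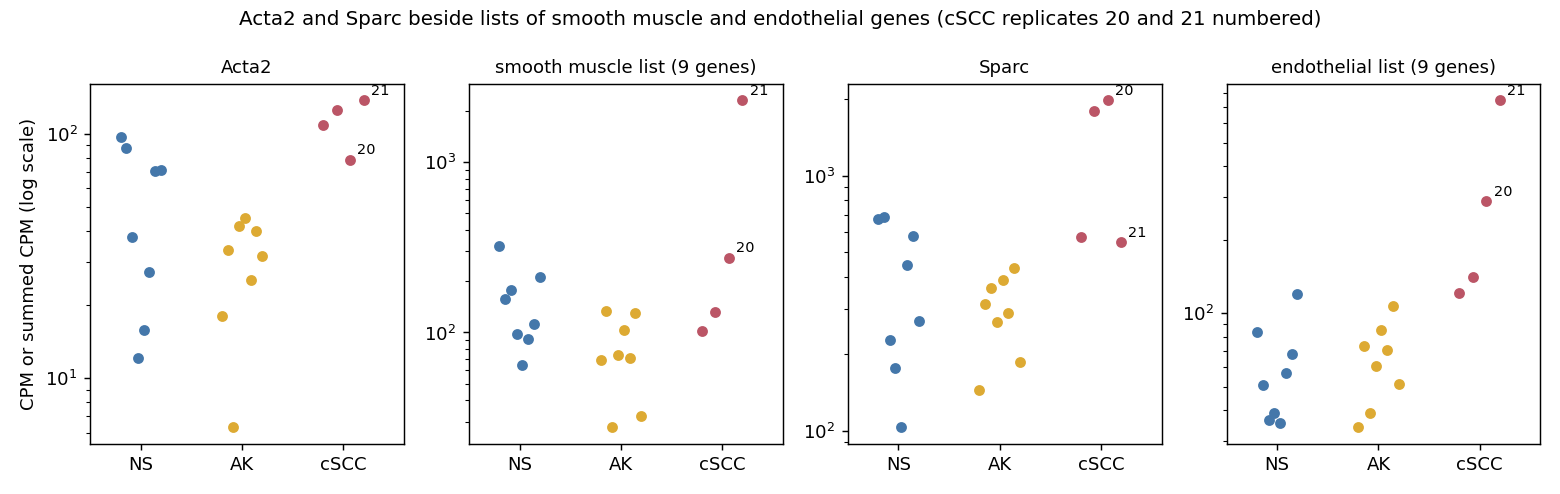
Acta2, the summed level of 9 smooth muscle genes, Sparc and the summed level of 9 endothelial genes, in CPM on log scales, with 1 point per sample for NS, AK and cSCC. The cSCC replicates 20 and 21 are numbered. Acta2 and Sparc are above all AK samples in every cSCC sample. The smooth muscle sum of the unnumbered cSCC samples lies within the AK range, above the AK median.

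Acta2 is shown with the short sites before its RefSeq start because it differed between cSCC and AK. Of the 250 bases before this start, 30-base stretches around 3 matches are given on the gene's strand from RefSeq on GRCm38.p6, since most of the window lies within the gene in GENCODE. Capitals mark the match, a CArG-like motif (the box bound by serum response factor, with at most 1 letter of its centre other than A or T) in the first pair and GGAATG, the motif bound by TEAD factors, in the last.
chr19:34255438-34255467: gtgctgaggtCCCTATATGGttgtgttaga
chr19:34255388-34255417: cgtctttgctCCTTGTTTGGgaagcgagtg
chr19:34255502-34255531: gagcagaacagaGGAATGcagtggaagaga
A CArG-like match is held by 8.59% and GGAATG by 12.6% of the promoter windows, on either strand. The CArG-like motif had no match in the windows of Postn, Tnc, Spp1, Sparc and Pdgfra, the other genes with a RefSeq window.

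Fap (ENSMUSG00000000392.17, chr2:62500943-62574075, minus strand, GRCm38) codes for the fibroblast activation protein, a surface serine protease. It was among the lowest of the 10 genes, at 3.15 to 31.3 CPM in NS (median 11.1), 4.19 to 15.6 CPM in AK (median 9.98) and 13.2, 11.9, 11.4 and 3.64 CPM in cSCC. The 3 groups overlapped throughout, and the highest sample was NS replicate 1. Counts behind these values were 5 to 178, so a moderate difference would be hard to detect at this depth. The edgeR values were -0.23 ± 0.40 (SE) in AK vs. NS, -0.18 ± 0.58 (SE) in cSCC vs. NS and 0.07 ± 0.45 (SE) in cSCC vs. AK, and each turned direction under some alternative.

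Pdgfra (ENSMUSG00000029231.15, chr5:75152292-75198215, plus strand, GRCm38) codes for the PDGF receptor of dermal fibroblasts. It varied widely in each group, from 3.38 to 80.4 CPM in NS (median 16.6) and from 2.77 to 63.5 CPM in AK (median 32.4), with 4.17, 50.1, 67.1 and 28.9 CPM in cSCC. The highest level in NS was 23.8 times and in AK 22.9 times the lowest. The edgeR values were 0.13 ± 0.59 (SE) in AK vs. NS, 0.50 ± 0.74 (SE) in cSCC vs. NS and 0.40 ± 0.72 (SE) in cSCC vs. AK, with adjusted p of 0.915, 0.672 and 0.719. Gm42802 and Gm42803 overlap Pdgfra on the opposite strand.

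Pdgfrb (ENSMUSG00000024620.11) codes for the PDGF receptor of pericytes and of many fibroblasts. It ranged from 1.13 to 23.2 CPM in NS (median 11.3) and from 3.97 to 22.2 CPM in AK (median 8.92), with 2.78, 13.2, 12.5 and 26.3 CPM in cSCC. NS replicate 6 held only 2 counts, under the limit of detection. The edgeR values were -0.18 ± 0.42 (SE) in AK vs. NS, 0.44 ± 0.60 (SE) in cSCC vs. NS and 0.67 ± 0.53 (SE) in cSCC vs. AK, with adjusted p of 0.825, 0.643 and 0.376.

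Postn and Sparc moved in opposite directions in cSCC vs. AK, so the ratio of their counts, which does not depend on library scaling, was taken after their values were seen. It was 1.03, 0.347, 0.272 and 0.226 in cSCC replicates 18 to 21, from 2.28 to 9.93 in AK with a median of 3.28, and from 0.453 to 12.7 in NS with a median of 1.99. All cSCC samples lay below all AK samples. This had to be so, since every cSCC sample was lower in Postn and higher in Sparc than every AK sample. NS replicates 1 and 2 had ratios of 0.453 and 0.498, within the cSCC range, and NS replicate 6 the highest ratio of all samples. The ratio is a description and was not tested.

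**Figure D4:**
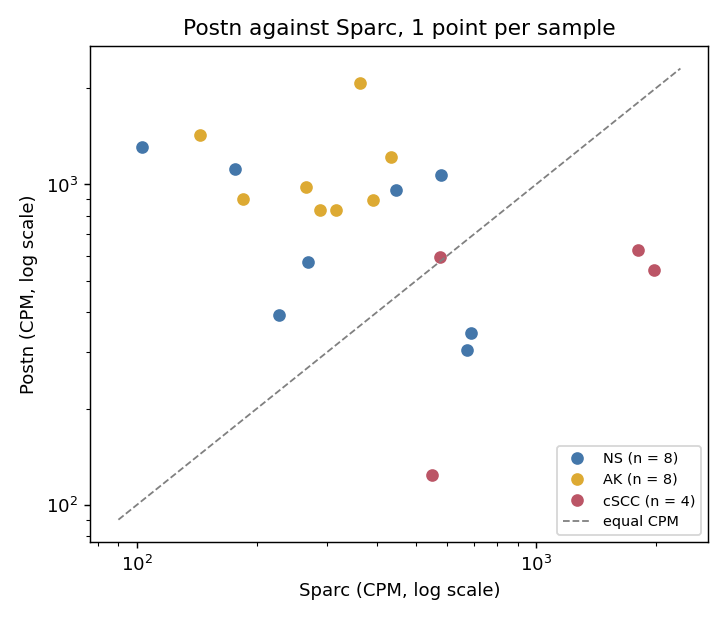
Postn against Sparc, both in CPM on log scales, with 1 point per sample for 8 NS, 8 AK and 4 cSCC samples and a dashed line of equal CPM. All AK samples are above the line, 3 of the cSCC samples and NS replicates 1 and 2 lie clearly below it, and cSCC replicate 18 lies close to it.

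Whether the genes varied together among samples of a group was examined over the 16 NS and AK samples, with each group's mean subtracted from log2(CPM + 1). NS of irradiated and unirradiated mice and AK of different grades were not separated. Samples that may share a mouse were treated as exchangeable in the permutations. The part of irradiation, grade and mouse in the values of r was not tested. Of the 45 pairs of genes 14 had a Pearson r whose permutation p, adjusted over the 45 pairs, was under 0.05 (100000 permutations within groups), 9 positive and 5 negative, and 7 did by Spearman's rho. Sparc, Fn1, Acta2, Pdgfra, Pdgfrb and Fap all had positive r with each other, as had Postn, Tnc and Thbs1, and each r between a gene of the first and a gene of the second was negative, though not every pair passed. The highest r were 0.81 for Sparc and Pdgfrb (rho = 0.74, adjusted permutation p = 0.00877 for r and 0.0283 for rho), 0.80 for Acta2 and Pdgfra (rho = 0.77, adjusted permutation p = 0.00877 for r and 0.0283 for rho) and 0.79 for Postn and Thbs1 (rho = 0.72, adjusted permutation p = 0.0228 for r and 0.0527 for rho). After removal of the 2 samples lying farthest from the first gene's median the r were 0.63, 0.77 and 0.73. The lowest r was -0.74 for Postn and Acta2 (rho = -0.64, adjusted permutation p = 0.0228 for r and 0.0682 for rho), and -0.64 without such samples.

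Within the 8 NS samples alone and within the 8 AK samples alone, none of the 45 pairs passed after adjustment by an exact permutation test. Postn and Tnc had r = 0.75 in the pooled samples (rho = 0.71), with 0.90 in NS and -0.02 in AK, and Postn and Thbs1 had 0.93 in NS and 0.23 in AK. The signs of Tnc in the pooled samples were not those within AK. There its r was 0.56 with Fn1, 0.53 with Sparc, 0.44 with Fap and 0.08 with Acta2. It was 0.28 with Pdgfra, 0.36 with Pdgfrb and -0.58 with Thbs1. The difference between NS and AK in r was not tested. The number of pairs that passed fell to 1 without NS replicate 6, to 2 without AK replicate 10, to 9 without NS replicate 1 and to 8 without NS replicate 2, and was 10 to 21 without any other sample. NS replicate 6 had the lowest Fn1, Sparc, Pdgfra and Pdgfrb and the highest Postn and Thbs1 of NS, and AK replicate 10 the lowest Fn1, Sparc, Fap, Pdgfra and Pdgfrb and the highest Thbs1 of AK. These samples also had the lowest score of fibroblast identity genes (mean log2(CPM + 1) of 8 genes) in their groups, 5.02 and 5.22 against up to 7.80 and 6.90. The part of the amount of dermis in a piece in these relations was not tested.

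**Figure D5:**
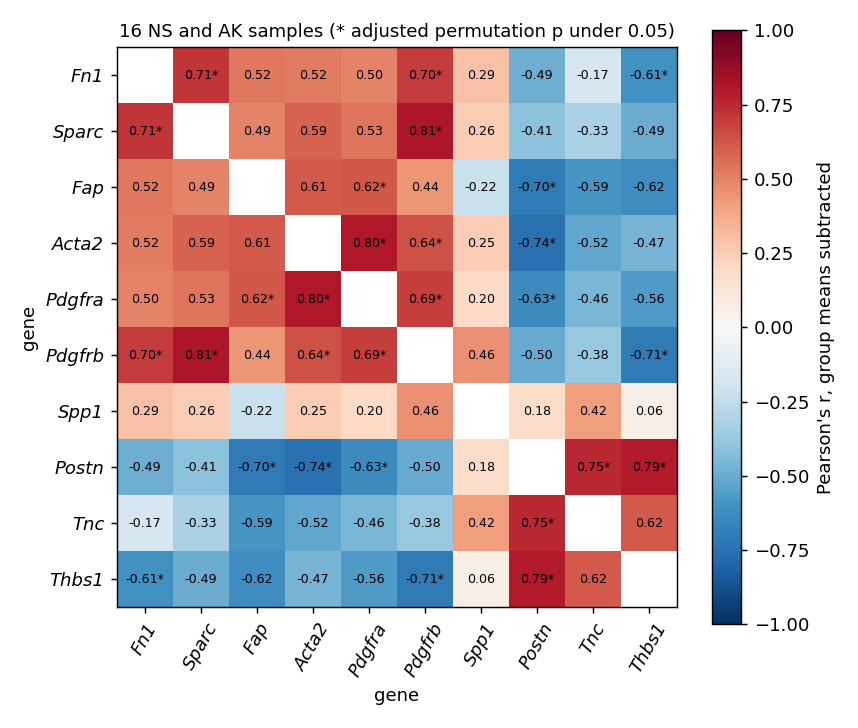
Pearson's r between each pair of the 10 genes over 16 NS and AK samples, with group means subtracted and the color scale from -1 to 1. Asterisks mark an adjusted permutation p under 0.05. Sparc and Pdgfrb have 0.81, Postn and Acta2 -0.74.

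Among all 11676 other genes tested in AK vs. NS, the 3 with the highest r to each gene over these 16 samples were listed as a description. For Sparc they were Pla1a (r = 0.93), Col3a1 (0.90) and Col1a2 (0.89), the last 2 being fibrillar collagen chains. For Pdgfrb they were Col5a2 (0.93), Fbn1 (0.89) and Inhbb (0.87), and for Fn1 Cbfa2t2 (0.87), Slamf9 (0.86) and Fbn1 (0.85). For Postn they were Gsdmc2 (0.91), Gsdmc (0.90) and Atp11b (0.89), for Tnc Krt6b (0.90), Gjb2 (0.88) and Havcr2 (0.87), and for Thbs1 Ceacam12 (0.89), Car12 (0.89) and Lpo (0.86). Gsdmc2, Gsdmc, Krt6b and Gjb2 are genes of epidermis, the first pair coding for gasdermins, Krt6b for a stress keratin and Gjb2 for connexin 26. Atp11b, Havcr2, Ceacam12, Car12 and Lpo are not placed in a tissue here, and the cells that made Postn, Tnc and Thbs1 were not tested. For Pdgfra they were Ifi205 (0.98), Mnda (0.97) and F13a1 (0.96), for Acta2 Glul (0.92), Jam2 (0.92) and B230118H07Rik (0.91), for Fap Ulk2 (0.91), Sspn (0.89) and Ifi203 (0.87), and for Spp1 Prc1 (0.87), Esd (0.80) and Stap1 (0.80). All 16 points share library depth and tissue make-up.

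Other genes of the same kinds were taken from lists, which were also chosen with earlier results of these data known. Of 14 other matricellular genes tested in cSCC vs. AK 5 were called higher and 0 lower, where 16% of all genes were called higher, with a median log2 fold change of 1.25 against 0.17 for all genes. They were Wisp2 (2.80) and Cyr61 (2.54), which code for CCN proteins, with Ctgf (1.49), Sparcl1 (1.94) and Bgn (2.10) named after their values were seen. In cSCC vs. NS 2 of 13 were called higher, Cyr61 (2.29) and Wisp2 (2.08), against 11.7% of all genes called higher. In AK vs. NS 1 of 14 was called, Tnxb, which codes for tenascin X and was lower (-1.41 ± 0.39, edgeR adjusted p = 0.0410), against 2.38% of all genes called lower. Without cSCC replicates 20 and 21, edgeR called Cyr61 and Tgfbi higher in cSCC than in AK and than in NS, and Tnxb lower than in NS. It did not call Wisp2, Ctgf, Sparcl1 or Bgn. DESeq2 then made the same calls and also called Wisp1 and Wisp2 higher than in AK, while limma voom called 0 of 14 in both comparisons.

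Of 19 other genes of activated fibroblasts, edgeR called 6 higher in cSCC than in NS and 5 higher than in AK, and 0 lower in either, where 11.7% and 16% of all genes were called higher. The largest were Inhba, which codes for a subunit of activin A (3.43 against NS and 2.50 against AK), and Pdpn, which codes for podoplanin (2.77 and 2.36). Col8a1 (1.80) and Fbn1 (1.34), named after their values were seen, were also among those called against AK. Keratinocytes can also make Inhba and Pdpn. Without cSCC replicates 20 and 21, edgeR called 6 and 4 of the 19 higher, with Inhba and Pdpn among both, and neither Col8a1 nor Fbn1 against AK. DESeq2 also called 6 and 4, but against AK it called Col8a1 and not Inhba. Limma voom called 4 and 1, with neither Inhba nor Pdpn called against AK. Of 17 tested in AK vs. NS, edgeR, DESeq2 and limma voom called 0, with 1 higher and 1 lower at an unadjusted p under 0.05 in edgeR. Of 8 fibroblast identity genes, 1 was called higher in cSCC than in AK (Clec3b, 2.73), a call lost in edgeR, DESeq2 and limma voom without cSCC replicates 20 and 21, and edgeR, DESeq2 and limma voom called 0 against NS, 0 of them in edgeR at an unadjusted p under 0.05 either, while the list's summed level overlapped in the 3 groups, at 722 to 6831 CPM in NS, 886 to 3612 CPM in AK and 611 to 4038 CPM in cSCC. Of the 3 fibrillar collagen genes Col1a1 was called in cSCC vs. AK (1.23).

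Among the receptors of these matrix proteins, Itga5, the fibronectin receptor subunit, was called higher in cSCC than in NS (2.68) and than in AK (2.11). Itgb1 was called higher than in NS (1.67 ± 0.30, edgeR adjusted p = 0.00321), with all cSCC samples above all NS samples, and Itgb5 higher than in AK (1.08). These were 2 of 14 in each comparison with cSCC, near the 11.7% and 16% of all genes called higher. Once cSCC replicates 20 and 21 were left out, edgeR no longer called Itga5 or Itgb5, while DESeq2 still called Itga5 against NS. It then called Itgb1 higher in both comparisons, Sdc4 higher than in NS and Cd36 lower than in AK. Of 8 ligands and receptors of PDGF and TGF-beta tested, Tgfb3 was called higher in cSCC than in AK (3.13 ± 0.59, edgeR adjusted p = 0.00335), and edgeR, DESeq2 and limma voom called 0 of 8 against NS, with 2 higher at an unadjusted p under 0.05 in edgeR. In AK vs. NS, Tgfbr1 was called higher (0.69 ± 0.19, edgeR adjusted p = 0.0418). Of the macrophage list Arg1 was called higher in cSCC than in NS (3.12) and AK (2.35), and Gpnmb (-2.14) was called lower than in AK. Of the keratinocyte list 4 of 7 were called lower in cSCC than in AK, with Krt10 (-3.12) and Krt1 (-3.02) the lowest, and 2 of 7, the same pair, lower than in NS (-4.04 and -3.46), where 8.34% and 7.65% of all genes were called lower. With cSCC replicates 20 and 21 left out, edgeR, DESeq2 and limma voom called 0 of the 7 lower than in AK (3 at an unadjusted p under 0.05 in edgeR) and each called Krt5 higher. Against NS edgeR then called Krt10 alone lower, and DESeq2 and limma voom both Krt1 and Krt10. These lists differ between the groups together with the 10 genes, and their part in the differences of Sparc, Acta2 and Postn was not tested.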

How the data were processed

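The data are RNA-seq counts of 20 SKH-1 mouse skin samples (8 NS, 8 AK and 4 cSCC), grouped by their labels. The authors deposited raw counts per gene symbol, not normalized. Per the labels, the submitters' processing notes list Trimmomatic 0.36, HISAT2 2.0.5 and featureCounts 1.5.2 with other builds, while the paper names GRCm38 and StringTie, so the step from reads to counts and its strand setting are not settled here. Instrument and irradiation also differ, HiSeq and every day by the labels against NextSeq and fewer days a week in the paper.

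CPM were computed with TMM factors over all samples. Group pairs were compared with edgeR 4.0.16 (R 4.3.3) on the 2 groups compared, with filterByExpr and Benjamini-Hochberg adjustment over all genes tested. Standard errors were taken from each log2 fold change and its F statistic (size over root F). Counts of all 62 within-group sample pairs differed beyond sampling noise (chi-square over degrees of freedom of at least 11.3), so each sample was counted once. Coordinates and exon lengths are from GENCODE M21, sequences from RefSeq for 6 of the 10 genes. Correlations used log2(CPM + 1), 100000 permutations, and all 40320 pairings within a group. No table column was left unused.

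The members and lists were chosen with earlier results of these data known. Named genes were all 10 members, the 2 called genes of each list with the largest change in each direction, and the 3 genes most like each member. Alternatives were DESeq2 1.42.0, limma 3.58.1 voom, other scalings, filters and samples, a covariate, log2(CPM + 0.1), and fits without 1 sample at a time. Leaving out haemoglobin and the list counts without cSCC libraries were added after seeing the data. The self-checks on simulated data used the same functions. Correlations and levels were computed in Python 3.11.15 with scipy 1.17.1, pandas 2.3.3 and numpy 2.4.6.

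Some single genes of the lists are not reported here.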

Additional observations from a re-analysis of the deposited data

Results flagged for a closer look

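Each gene's lowest and highest sample in each group was compared with the others by Dixon's criterion on log2(CPM + 1). In 5 of 30 gene and group combinations a sample lay far from the rest, where chance flags about 1 in 20 groups. In cSCC, replicate 21 was the lowest for Postn (124 CPM, the next 539), for Spp1 (23.2 CPM, the next 240) and for Fap (3.64 CPM, the next 11.4). It is also the library with 5.23% of its counts from heart muscle genes, and the part of these in its levels was not tested. In AK, replicate 16 was the highest for Spp1 (929 CPM, the next 224), and replicate 10, the deepest library, the highest for Thbs1 (363 CPM, the next 212).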

How the results depend on the processing

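No paired analysis was possible because the replicate numbers are not shared between groups and no label ties a tissue to its mouse. Of 770 alternative values of the 30 member comparisons 694 kept direction and side of the threshold, 23 lost and 6 gained a call, and 47 turned direction. The calls of Sparc and Acta2 in cSCC vs. AK held under each alternative that changed 1 choice (Acta2 was not tested with at least 10 counts in every sample), but limma voom without cSCC replicates 20 and 21 did not call Sparc. Postn in cSCC vs. AK was lost with upper quartile factors, limma voom, the fibroblast covariate and without cSCC replicates 20 and 21 (adjusted p 0.0621, 0.0992, 0.0862 and 0.143). The number of genes called in AK vs. NS was 0, and 1 with limma voom, with the covariate or with an unadjusted p. In cSCC vs. NS it was 1, and 0 with library size alone or without cSCC replicates 20 and 21 in edgeR (also 0 in limma voom, and 1, Spp1, in DESeq2), 2 with the covariate or an unadjusted p, and 0 to 1 when 1 sample was left out. The number of correlated pairs was 14, and 1 to 21 when 1 sample was left out. The cause of these changes was not tested.

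Values turned direction as follows. In AK vs. NS they were Sparc 0.026 with limma voom, and Fn1 0.10, Fap 0.084 and Pdgfrb 0.12 with the covariate. In cSCC vs. NS they were Fap 0.14 with limma voom, and Fap 0.14 and Pdgfrb -0.37 without cSCC replicates 20 and 21. In cSCC vs. AK, with library size alone they were Spp1 -0.092 and Fap -0.19, with no filter Spp1 -0.061 and Fap -0.082, with all samples in 1 fit Spp1 -0.018 and Fap -0.041, with the covariate Spp1 -0.018 and Pdgfra -0.55, and without cSCC replicates 20 and 21 Pdgfra -0.060 and Pdgfrb -0.16. When 1 sample was left out, the AK vs. NS values ranged from -0.17 to 0.087 for Fn1, -0.25 to 1.65 for Spp1, -0.38 to 0.20 for Fap, -0.10 to 0.58 for Pdgfra and -0.44 to 0.079 for Pdgfrb. The cSCC vs. NS values ranged from -0.38 to 0.24 for Fap and -0.14 to 0.76 for Pdgfrb, and the cSCC vs. AK values from -0.54 to 0.53 for Tnc, -0.30 to 0.92 for Spp1, -0.17 to 0.30 for Fap and -0.026 to 0.94 for Pdgfrb.

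Library size alone moved the median log2 fold change of all genes from -0.04 to -0.13, from 0.14 to -0.17 and from 0.17 to -0.09, and 176 of 657, 625 of 1957 and 1021 of 2377 calls were higher, against 264 of 542, 1414 of 2340 and 1931 of 2935. In AK vs. NS 190 of 581 calls were higher with upper quartile factors and 182 of 517 with at least 10 counts. All genes called numbered 1049, 1043, 9 and 1798 in AK vs. NS with DESeq2, limma voom, all samples in 1 fit and an unadjusted p, 1308, 1526, 4052 and 1558 in cSCC vs. NS with limma voom, at least 10 counts, an unadjusted p and without cSCC replicates 20 and 21, and 1270, 1731, 4504 and 1584 in cSCC vs. AK likewise. With 1 sample left out AK vs. NS had 164 (without NS replicate 4) to 920 (without NS replicate 8), and cSCC vs. AK 1787 without cSCC replicate 21. Depth limits Fap, Pdgfra and Pdgfrb, whose counts were as low as 5, 4 and 2.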

Other observations

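The ratio of Pdgfra to Pdgfrb counts ranged from 0.972 to 7.41 in NS, from 0.500 to 5.11 in AK and from 1.10 to 5.36 in cSCC, with medians of 1.80, 3.36 and 2.65. The ratio of Acta2 to Tagln counts, both contractile genes, ranged from 0.931 to 6.54 in NS, from 2.31 to 11.6 in AK and from 1.41 to 8.49 in cSCC. In both ratios the groups overlapped. Platelet genes, which bear on Thbs1, summed to 50.7 to 368 CPM in NS, 42.4 to 245 CPM in AK and 70.1 to 257 CPM in cSCC, with the groups overlapping.

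The libraries that stood apart showed in the lists of other tissues. Of the heart muscle genes tested, 6 of 6 were called higher in cSCC than in NS and 7 of 7 higher than in AK, and of the lung genes 3 of 3 and 2 of 3. Of the red cell genes 5 of 5 and 4 of 5 were called higher. Of 6 skeletal muscle genes 3 were called lower in cSCC than in NS (Myh1, Tnnt3 and Mylpf) and 1 higher than in AK (Ckm). These calls are from edgeR. Without cSCC replicates 20 and 21 it called 2 of 6 and 1 of 7 heart muscle genes higher, and of 3 lung genes 0 higher in both comparisons and 1 lower than in NS. With all samples DESeq2 called 0 of the heart muscle and 0 of the lung genes in both comparisons, and 0 at an unadjusted p under 0.05. A gene left without a p-value by DESeq2 counted as not called, so these counts do not show that the groups were alike. The part of these lists in the levels of the 10 genes was not tested.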
